A study of Homo sapiens with 15 samples.

Results

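The lysosomal genes described here were 32 genes, named by symbol, that encode hydrolases of the lysosome, the precursors of their protein cofactors and proteins of the lysosomal membrane. They were chosen by what they encode, with earlier results of these data known. All 32 were among the 18338 genes of the deposited tables, and 31 of them were among the 11753 genes whose mean over all libraries reached 1 FPKM, the level at which a gene was tested (FPKM, the fragments of a gene relative to its length and to all mapped fragments). The remaining member, CTSZ, a carboxypeptidase of the cathepsin family, stayed at or below 0.16 FPKM in every library and was not tested. The other members were expressed in every library, with control means between 3.16 FPKM for ARSB and 136 FPKM for CTSD. These are RNA levels and do not show where the proteins lie.

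RNA-Seq was run on 15 libraries from Biosensor cells. They derive from the human embryonic kidney line HEK293 and stably express TauRD(P301S)-YFP, a tau repeat domain with a disease mutation joined to yellow fluorescent protein. All 3 groups carried this reporter. Cells of the thapsigargin group (5 libraries) were treated with 0.3 µM thapsigargin, which blocks the calcium pump of the endoplasmic reticulum (ER) and causes ER stress. Cells of the PS19 group (5 libraries) were transfected with brain lysate of PS19 mice, which carry a human tau transgene with the same mutation under a prion promoter, and cells of the control group (5 libraries) with brain lysate of wildtype mice. The text read here does not name the hours in thapsigargin or whether those cells also received lysate, so an effect of the drug and an effect of leaving out lysate cannot be told apart. The study's supplementary figure on thapsigargin labels the comparator as WT brain, which is the lysate of the control group here. Its own contrast for thapsigargin names a transfection control, and the sources used do not say whether these are the same cells. The study calls the libraries independent experimental replicates without naming separate cultures. The p-values thus cover only how far these libraries scatter, part of which may be technical. All cells came from 1 line.

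Lysosomal hydrolases are made in the ER, tagged with mannose 6-phosphate in the Golgi and carried to the lysosome by receptors that recognise the tag. They work at the acid pH that the V-ATPase proton pump maintains, inside a membrane lined with heavily glycosylated proteins such as LAMP1 and LAMP2. Many of their genes carry CLEAR elements in the promoter, to which the transcription factors TFEB and TFE3 bind when lysosomes are stressed or nutrients are scarce, and loss of single members causes lysosomal storage disease.

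The libraries matched their labels in the genes that report ER stress. All 5 ER stress reference genes rose with thapsigargin. DDIT3, the transcription factor CHOP, averaged 140 ± 16.6 FPKM in thapsigargin libraries and 10.4 ± 2.64 FPKM in control libraries (SD, n = 5 each), and the 5 genes together summed to between 1360 and 1990 FPKM in thapsigargin, 269 and 295 FPKM in PS19 and 262 and 326 FPKM in control libraries. The 9 HEK293 markers were all above 1 FPKM. The 7 macrophage and microglia markers found in the tables were all below a mean of 1 FPKM, with sums of 0.47 to 1.54 FPKM in thapsigargin, 0.46 to 0.59 FPKM in PS19 and 0.53 to 1.05 FPKM in control libraries, as were 7 of the 8 neuron, astrocyte and oligodendrocyte markers, with sums of 2.24 to 3.35 FPKM in thapsigargin, 3.96 to 4.71 FPKM in PS19 and 3.89 to 4.96 FPKM in control libraries. Control libraries 1 and 2 differed from control libraries 3, 4 and 5 in a way that followed base composition. Spearman's correlation across genes was taken between a library's deviation from the control mean and the GC content of the transcript. It was 0.45 and 0.63 in control libraries 1 and 2 and between -0.44 and -0.40 in control libraries 3, 4 and 5. Deviations from the control mean balance among control libraries, so opposite signs among them are partly fixed by the measure. It lay between -0.13 and 0.44 in thapsigargin libraries and between 0.0077 and 0.47 in PS19 libraries. These are descriptions across genes, which are not independent replicates.

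Thapsigargin split the lysosomal genes. Of the 31 members tested, 17 fell, 7 rose and 7 were not called at an adjusted p under 0.1 (limma on log2(FPKM + 0.5), Benjamini-Hochberg adjustment over all 11753 genes). The 17 members that fell were 54.8% of those tested, against 43.4% of all genes tested, and the 7 that rose were 22.6%, against 26.0% of all genes. These shares were near the background, since thapsigargin moved most genes. The median log2 fold change of the members was -0.24, beside -0.13 over all genes tested. Thapsigargin libraries lay wholly below control libraries in 10 members (32.3%, against 25.3% of all genes) and wholly above in 4 (12.9%, against 14.7% of all genes). Since these are bulk samples, fewer cells of a kind and less RNA per cell cannot be told apart. The study states a nominal number of reads per sample. The depth reached in each library is unknown, because the tables hold no counts.

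**Figure D1:**
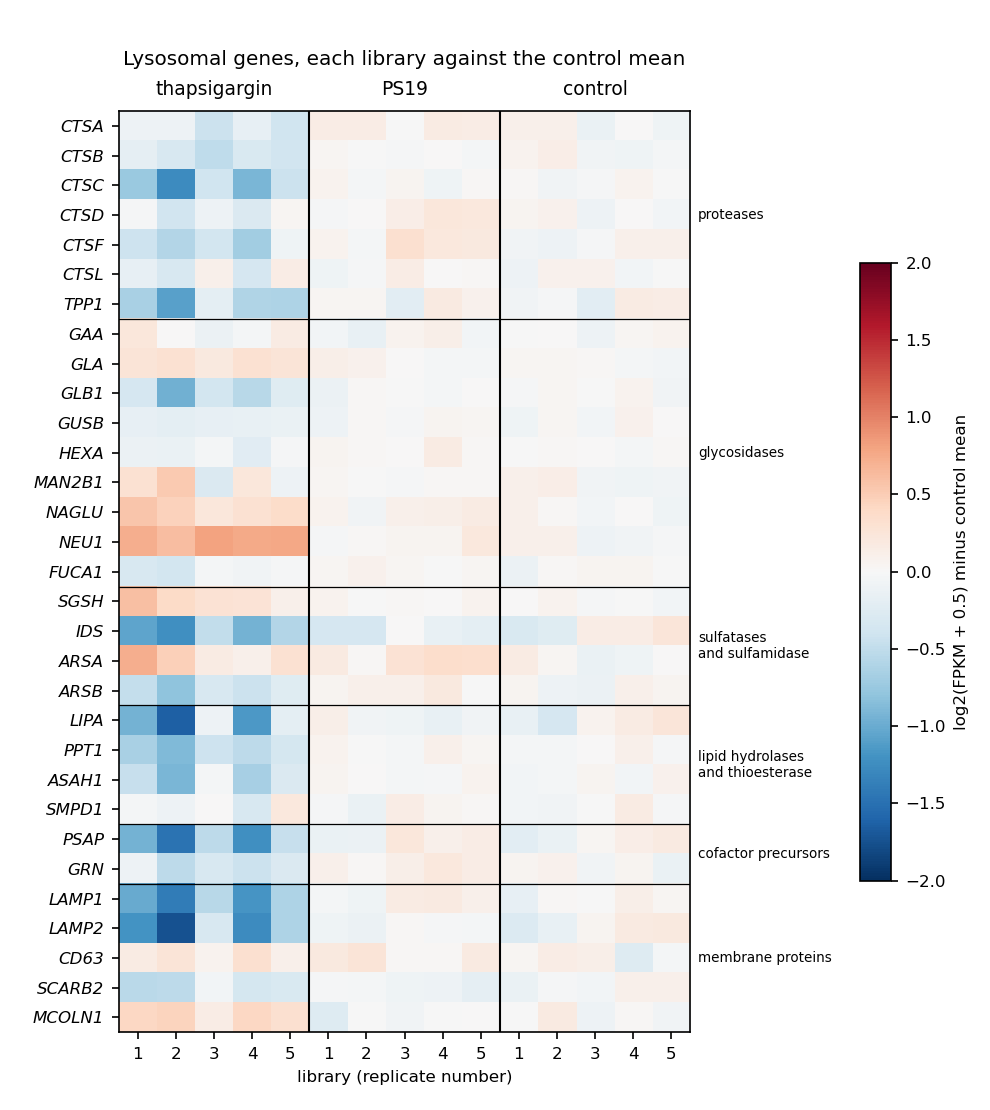
Heat map of log2(FPKM + 0.5) minus the control mean for 31 lysosomal genes (rows, grouped by role) in 15 libraries (columns, thapsigargin, PS19 and control, 5 each). Blue cells in LAMP1, LAMP2, PSAP, LIPA and CTSC are deepest in thapsigargin libraries 2 and 4, NEU1 is red in all 5 thapsigargin libraries, and the PS19 columns are pale.

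The lysosomal membrane proteins held the largest fall and also a rise. LAMP1, a main glycoprotein of the lysosomal membrane, had 23.8, 17.8, 32.5, 20.8 and 31.1 FPKM in thapsigargin libraries 1 to 5, against 46.5, 45.2, 53.7, 54.7 and 51.5 FPKM in PS19 libraries and 42.8, 48.6, 48.0, 51.9 and 49.3 FPKM in control libraries. Every thapsigargin library was below every library of the other groups. The log2 fold change against control was -0.95 ± 0.15 (SE, adjusted p = 0.000208, limma). LAMP2, its partner and the receptor of chaperone-mediated autophagy in one of its isoforms, had 8.59, 5.73, 16.2, 8.20 and 13.2 FPKM in thapsigargin libraries, against 19.2, 18.8, 20.8, 20.1 and 19.9 FPKM in PS19 libraries and 16.9, 18.3, 21.2, 23.1 and 23.5 FPKM in control libraries. The groups did not overlap, although thapsigargin library 3 came close to control library 1, and the log2 fold change was -1.03 ± 0.22 (SE, adjusted p = 0.00178, limma). SCARB2, a glycoprotein of the lysosomal membrane also called LIMP-2, had 11.2, 11.3, 15.9, 12.9 and 13.3 FPKM in thapsigargin libraries and 15.1, 16.2, 16.0, 17.9 and 17.9 FPKM in control libraries. It fell by 0.36 on the log2 scale (adjusted p = 0.00836, limma), with thapsigargin library 3 inside the control range.

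MCOLN1, which encodes the calcium channel TRPML1 of the lysosomal membrane, moved the other way. It had 16.7, 16.9, 13.8, 16.6 and 15.4 FPKM in thapsigargin libraries, against 10.2, 12.3, 11.7, 12.2 and 12.4 FPKM in PS19 libraries and 12.2, 13.9, 11.4, 12.5 and 11.7 FPKM in control libraries. Only thapsigargin library 3 reached into the control range, below control library 2, and the log2 fold change was 0.35 ± 0.084 (SE, adjusted p = 0.00345, limma). CD63, a tetraspanin of late endosomes and exosomes, had 121, 130, 114, 136 and 117 FPKM in thapsigargin libraries and 111, 120, 117, 90.1 and 106 FPKM in control libraries. These ranges overlapped, and its call at a log2 fold change of 0.18 (adjusted p = 0.0881, limma) had a 95% interval of -0.0089 to 0.38. The call was lost when any 1 of thapsigargin libraries 1, 2 and 4 or control libraries 1, 4 and 5 was left out (log2 fold changes of 0.12 to 0.19, adjusted p of 0.11 to 0.23, limma).

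**Figure D2:**
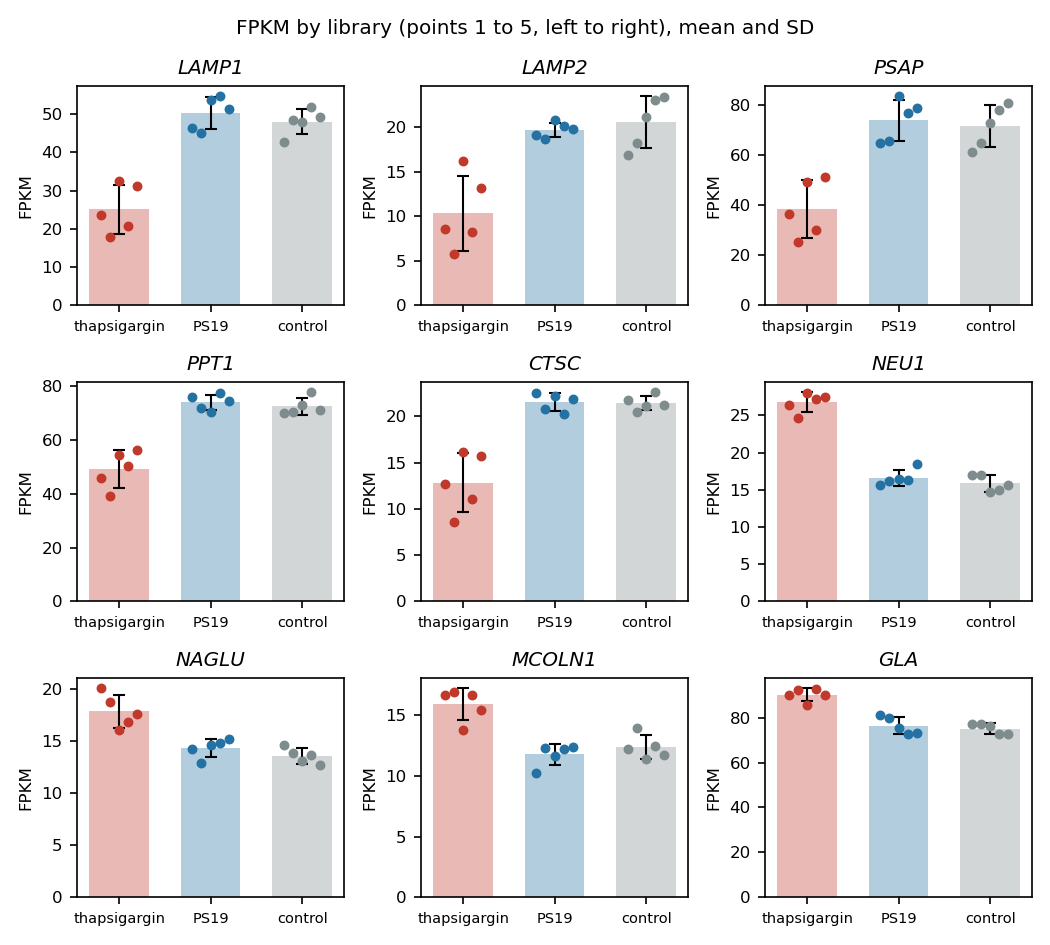
FPKM (vertical axes, starting at 0) of 9 lysosomal genes in each library, grouped as thapsigargin, PS19 and control. Bars are means, whiskers are SD and points are libraries 1 to 5; thapsigargin points of LAMP1, PSAP, PPT1 and CTSC lie below all others, and those of NEU1, NAGLU and GLA lie above all others.

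The upstream sequences of the members with a CLEAR core are shown because LAMP1 and MCOLN1, which moved in opposite directions with thapsigargin, both carry it. Promoters (250 bases before to 50 after the annotated start, RefSeq, GRCh38.p14) were given for 24 of the 32 members. At 75% this was too few for a share over the members to be read. The motif searched was the CLEAR core TCACGTGA, a palindrome that contains the E-box CACGTG, on both strands. Of all 27305 promoters of this length, 1.04% held the CLEAR core and 7.43% the E-box. Among the 9667 promoters of tested genes these shares were 2.05% and 10.5%. The cores lay at -29 and -2 from the start in LAMP1, at -42 and -15 in MCOLN1, at -77 and -32 in GAA and at -26 in CTSA. Capitals mark the CLEAR cores and the E-boxes, and the last 2 capitals of LAMP1 open the core that spans the start.
LAMP1, bases 200 to 1 before the start, plus strand, chr13:113297039-113297238: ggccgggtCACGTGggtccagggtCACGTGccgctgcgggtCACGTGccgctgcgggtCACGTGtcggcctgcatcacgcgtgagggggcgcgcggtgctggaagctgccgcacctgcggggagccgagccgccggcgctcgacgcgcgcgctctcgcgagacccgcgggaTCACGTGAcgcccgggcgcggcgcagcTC
MCOLN1, bases 100 to 1 before the start, plus strand, chr19:7522524-7522623: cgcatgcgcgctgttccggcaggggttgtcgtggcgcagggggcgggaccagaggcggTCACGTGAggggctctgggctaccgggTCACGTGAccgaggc
GAA, bases 100 to 1 before the start, plus strand, chr17:80101481-80101580: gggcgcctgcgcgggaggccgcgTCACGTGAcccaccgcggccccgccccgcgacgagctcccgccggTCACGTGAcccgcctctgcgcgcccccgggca
CTSA, bases 60 to 1 before the start, plus strand, chr20:45891275-45891334: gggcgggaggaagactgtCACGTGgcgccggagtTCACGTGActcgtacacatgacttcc
NEU1, bases 140 to 91 before the start, minus strand, chr6:31862912-31862961: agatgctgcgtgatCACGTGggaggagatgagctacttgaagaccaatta

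LAMP1 held 6 E-boxes in its window, of which 2 are CLEAR cores, and MCOLN1 held 2, both CLEAR cores. LAMP1 fell, MCOLN1 rose, CTSA fell by 0.24 on the log2 scale, and GAA, with a pair of cores, was not called at a log2 fold change of 0.047. NEU1, the member with the largest rise, held 1 E-box at -126 and no match to the CLEAR core in the window given. The ER stress element and the C/EBP-ATF core TGATGNAA had no match in the 24 member windows. Of the promoters of tested genes 0.145% and 1.54% held them, and of all promoters 0.0806% and 3.67%. At such shares 24 windows are too few for an absence to be read. A match is a run of letters and not a measured site.

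The cofactor precursors both fell. PSAP encodes prosaposin, from which the saposins that activate sphingolipid hydrolases are cut. It had 36.5, 25.2, 49.1, 30.1 and 51.3 FPKM in thapsigargin libraries, against 64.6, 65.6, 83.3, 76.6 and 78.7 FPKM in PS19 libraries and 61.2, 64.7, 72.7, 78.03 and 80.8 FPKM in control libraries. Thapsigargin libraries were below all others, lowest in libraries 2 and 4, and the log2 fold change was -0.93 ± 0.18 (SE, adjusted p = 0.000811, limma). GRN encodes progranulin, a secreted and lysosomal precursor whose loss causes frontotemporal dementia and, when complete, a storage disease. It had 106, 79.0, 90.9, 84.5 and 93.3 FPKM in thapsigargin libraries and 118, 121, 109, 118 and 104 FPKM in control libraries. Thapsigargin library 1 exceeded the lowest control library, and GRN fell by 0.33 on the log2 scale (adjusted p = 0.00521, limma).

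None of the 7 proteases tested rose, 5 fell and 2 were not called, where 26.0% of all genes rose and 43.4% fell. CTSC, the dipeptidyl peptidase that activates serine proteases of granules, had 12.7, 8.63, 16.1, 11.1 and 15.7 FPKM in thapsigargin libraries, against 22.5, 20.8, 22.2, 20.3 and 21.9 FPKM in PS19 libraries and 21.7, 20.5, 21.2, 22.6 and 21.2 FPKM in control libraries. All thapsigargin libraries were below all others, at a log2 fold change of -0.75 ± 0.14 (SE, adjusted p = 0.000831, limma). TPP1, a tripeptidyl peptidase lost in a neuronal ceroid lipofuscinosis, had 22.9, 16.8, 31.5, 23.9 and 23.5 FPKM in thapsigargin libraries and 34.5, 35.8, 31.3, 40.8 and 40.3 FPKM in control libraries. It fell by 0.63 on the log2 scale (adjusted p = 0.00195, limma), with thapsigargin library 3 just above control library 3. CTSF, CTSB and CTSA, the last of which also shields NEU1 and GLB1 in a complex, fell by 0.43, 0.33 and 0.24. Of these, CTSB alone had groups that did not overlap.

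The call of the most abundant protease depended on the scaling. CTSD, the main aspartic protease of the lysosome, had 135, 105, 127, 112 and 140 FPKM in thapsigargin libraries, against 134, 137, 150, 159 and 158 FPKM in PS19 libraries and 142, 145, 127, 137 and 131 FPKM in control libraries. Thapsigargin libraries 2 and 4 were below the control range, library 3 was at its lower edge and libraries 1 and 5 were inside it, and the log2 fold change of -0.15 did not pass (adjusted p = 0.164, 95% interval -0.34 to 0.045, limma). It passed without thapsigargin library 5 (-0.19, adjusted p = 0.0734), with every library rescaled to the same sum of FPKM (-0.31, adjusted p = 0.0194) and with quantile normalization (-0.32, adjusted p = 0.00985). CTSL, a cysteine endopeptidase, had 28.3, 25.4, 34.1, 25.1 and 35.3 FPKM in thapsigargin libraries and 29.7, 33.6, 33.7, 30.5 and 31.5 FPKM in control libraries. It was low in some thapsigargin libraries and high in others, at a log2 fold change of -0.11 (adjusted p = 0.357, limma).

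The glycosidases held the clearest rises. NEU1, the lysosomal sialidase, had 26.4, 24.7, 28.1, 27.2 and 27.5 FPKM in thapsigargin libraries, against 15.6, 16.2, 16.5, 16.4 and 18.4 FPKM in PS19 libraries and 17.0, 17.0, 14.69, 15 and 15.6 FPKM in control libraries. All 5 thapsigargin libraries were above all others and close to each other, and the log2 fold change was 0.74 ± 0.073 (SE, adjusted p = 9.29e-06, limma), a 1.67-fold rise. NAGLU, which removes N-acetylglucosamine from heparan sulfate, had 20.1, 18.7, 16.0, 16.9 and 17.6 FPKM in thapsigargin libraries, against 14.3, 12.9, 14.6, 14.8 and 15.2 FPKM in PS19 libraries and 14.6, 13.8, 13.1, 13.6 and 12.7 FPKM in control libraries. Its thapsigargin libraries were also above all others, at a log2 fold change of 0.38 ± 0.079 (SE, adjusted p = 0.00149, limma). GLA, the alpha-galactosidase lost in Fabry disease, had 90.1, 92.4, 85.7, 92.6 and 90.0 FPKM in thapsigargin libraries and 77.2, 77.0, 76.2, 72.7 and 72.5 FPKM in control libraries. The groups were apart by a small step, a 1.2-fold rise (adjusted p = 0.00265, limma).

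GLB1, the beta-galactosidase used as a marker of senescence, and GUSB, the beta-glucuronidase, fell. GLB1 had 21.5, 13.8, 21.0, 18.5 and 23.1 FPKM in thapsigargin libraries and 27.0, 28.0, 27.0, 28.6 and 26.0 FPKM in control libraries, a log2 fold change of -0.49 (adjusted p = 0.00349, limma). GUSB had 31.6, 30.9, 31.4, 31.9 and 32.3 FPKM in thapsigargin libraries and 33.4, 36.3, 34.0, 37.5 and 35.7 FPKM in control libraries. Neither gene's groups overlapped, and the fall of GUSB was small, at 0.896-fold, and no longer called without control library 4 (-0.14, adjusted p = 0.107, limma). GUSB and the sulfatase IDS have pseudogenes of near-identical sequence, so their estimates can include or lose shared fragments. The other 4 glycosidases, GAA (acid alpha-glucosidase), HEXA (the alpha subunit of beta-hexosaminidase), MAN2B1 (alpha-mannosidase) and FUCA1 (alpha-fucosidase), were not called, with log2 fold changes between -0.16 and 0.13 and overlapping groups. FUCA1 was called as lowered when thapsigargin library 3 or 5 or control library 1 was left out (-0.19 to -0.20, adjusted p of 0.0711 to 0.0989), and MAN2B1 as raised without thapsigargin library 3 (0.23, adjusted p = 0.0794, limma).

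The sulfatases and the sulfamidase divided evenly. IDS, the iduronate sulfatase lost in Hunter syndrome, had 9.45, 8.35, 14.2, 10.2 and 13.3 FPKM in thapsigargin libraries, against 15.9, 16.0, 20.4, 18.3 and 17.7 FPKM in PS19 libraries and 16.4, 17.1, 22.5, 22.6 and 24.03 FPKM in control libraries. Thapsigargin libraries were lowest, and control libraries 1 and 2 were lower than the other 3 controls. The log2 fold change was -0.87 ± 0.15 (SE, adjusted p = 0.000554, limma). ARSB, which removes sulfate from dermatan sulfate, was scarce and fell by 0.45 on the log2 scale (adjusted p = 0.00374, limma). It averaged 2.19 ± 0.38 FPKM in thapsigargin libraries and 3.16 ± 0.26 FPKM in control libraries (SD, n = 5 each). SGSH, the sulfamidase of heparan sulfate, had 25.2, 21.8, 20.2, 20.1 and 17.7 FPKM in thapsigargin libraries and 16.6, 17.4, 16.3, 16.4 and 15.9 FPKM in control libraries. It rose without overlap by 0.33 on the log2 scale (adjusted p = 0.00734, limma). ARSA, the arylsulfatase lost in metachromatic leukodystrophy, had 14.3, 12.04, 9.57, 9.10 and 10.6 FPKM in thapsigargin libraries, against 9.69, 8.62, 10.5, 10.9 and 10.9 FPKM in PS19 libraries and 9.58, 8.72, 7.72, 8 and 8.49 FPKM in control libraries. Thapsigargin libraries 1 and 2 were highest, and 3 and 4 did not exceed the highest control library. Its log2 fold change was 0.35 (adjusted p = 0.0193, limma).

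Of the 4 members that act on lipids or remove lipid anchors, 3 fell and none rose (43.4% of all genes fell and 26.0% rose). PPT1, the palmitoyl-protein thioesterase lost in infantile ceroid lipofuscinosis, had 46.0, 39.0, 54.4, 50.3 and 56.4 FPKM in thapsigargin libraries, against 75.7, 71.9, 70.5, 77.3 and 74.5 FPKM in PS19 libraries and 70.0, 70.4, 72.9, 77.6 and 71.0 FPKM in control libraries. All thapsigargin libraries were below all others, at a log2 fold change of -0.56 ± 0.096 (SE, adjusted p = 0.000408, limma). LIPA, the acid lipase of cholesteryl esters, had 13.1, 7.99, 24.1, 11.3 and 22.4 FPKM in thapsigargin libraries, against 28.0, 24.5, 24.2, 23.3 and 24.7 FPKM in PS19 libraries and 23.3, 20.3, 27.1, 29.1 and 30.8 FPKM in control libraries. Thapsigargin libraries 1, 2 and 4 were far below the rest and libraries 3 and 5 were inside the control range, so that its log2 fold change of -0.81 carried the largest error of the members (SE 0.25, adjusted p = 0.0149, limma). Without control libraries 4 and 5, a choice made after seeing the data, LIPA was no longer called (-0.67, adjusted p = 0.106, limma). ASAH1, the acid ceramidase, fell by 0.47 on the log2 scale (adjusted p = 0.0105, limma), with thapsigargin library 3 inside the control range. SMPD1, the acid sphingomyelinase, averaged 4.85 ± 0.71 FPKM in thapsigargin libraries and 5.00 ± 0.37 FPKM in control libraries (SD, n = 5 each) and was not called.

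**Figure D3:**
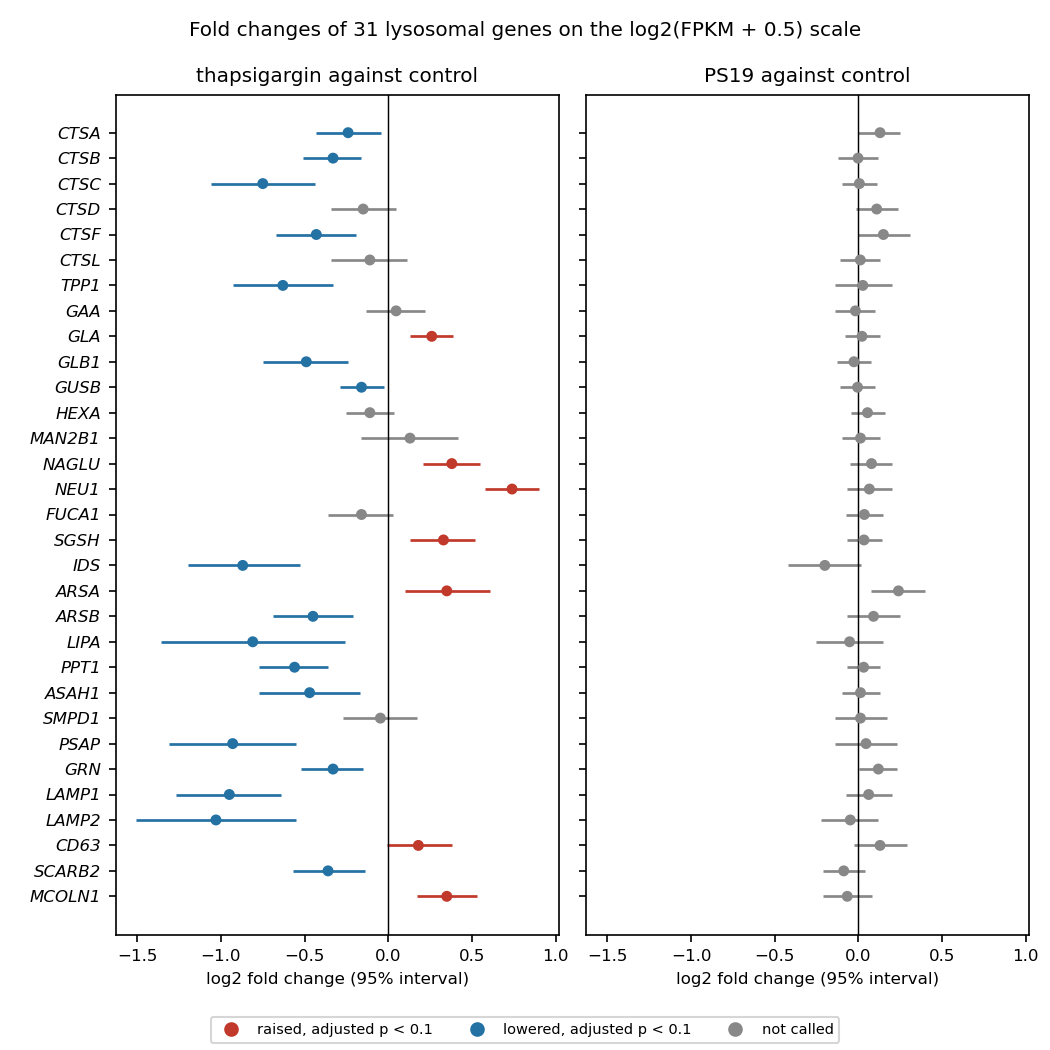
Log2 fold changes (horizontal axes) with 95% intervals for 31 lysosomal genes (vertical axis), thapsigargin against control on the left and PS19 against control on the right. On the left 7 genes are red (raised) and 17 blue (lowered); on the right all 31 points are grey (not called) and no interval reaches beyond -0.42 or 0.40.

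The thapsigargin libraries differed from each other more than those of the other groups, and not only in the members. Across all genes tested, correlations between libraries of a group lay between 0.9632 and 0.9944 in thapsigargin. They lay between 0.9949 and 0.9979 in PS19 and between 0.9906 and 0.9972 in control. The coefficient of variation had a median over the 31 tested members of 14.6% in thapsigargin libraries, against 6.01% in PS19 and 6.92% in control libraries, and thapsigargin had the largest of the 3 in 27 members. Of the 17 members that fell, 13 were lowest in thapsigargin library 2, while library 3 was highest in 8 and library 5 in 6. The 7 members that rose had no such common order, with library 3 lowest in 4 of them and library 1 highest in 3. The same counts were not made over all genes, so they do not set the members apart. The summed FPKM of all genes moved with this, at 637687 in thapsigargin library 2, 551499 in library 3 and 580404 in library 5, and rescaling to a common sum is given below. The members together took 0.138% to 0.181% of all FPKM in thapsigargin libraries, 0.204% to 0.224% in PS19 libraries and 0.197% to 0.221% in control libraries. Without thapsigargin libraries 2 and 4, a choice made after seeing the data, 17 members were lowered and 6 raised, CD63 being the one lost, beside 36.6% and 22.6% of all genes.

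FPKM was not scaled to a common sum, and a common scaling moved the smaller changes. With every library rescaled to the same sum (TPM), the median over all genes was -0.28 and 3 members were raised, NEU1, NAGLU and MCOLN1, and 21 lowered, beside 17.4% and 54.6% of all genes. GLA, SGSH, ARSA and CD63 then missed the threshold, at log2 fold changes of 0.10, 0.17, 0.20 and 0.021, and CTSD (-0.31), CTSL (-0.27), FUCA1 (-0.32) and HEXA (-0.27) passed it as lowered. With median-ratio scaling the median over all genes was -0.0022 and 8 members were raised and 15 lowered, beside 34.2% and 33.4% of all genes, GAA joining those raised (0.18) and CTSA and GUSB missing the threshold at -0.10 and -0.026. NEU1, NAGLU and MCOLN1 were raised under each of these scalings and in all 26 settings tried. LAMP1, LAMP2, PSAP, CTSC, PPT1, CTSF, TPP1, GLB1, IDS, ASAH1 and GRN were lowered in all 26.

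Base composition moved with the fold changes of thapsigargin. The members that rose had a median GC content of 59.9% and those that fell 50.5%, beside 55.3% and 45.7% for all genes tested that rose and fell. Spearman's correlation between GC content and log2 fold change was 0.58 across the 31 members and 0.31 across the 11584 tested genes with a value, a description in which all points share the same libraries. With smooth trends in GC content, transcript length and expression level removed from each library, a choice made after seeing the data, 33.1% of all genes were raised and 35.9% lowered. Of the members, 7 were raised and 17 lowered, of which 6 and 14 were the same genes as before. The falls of LAMP1 (-0.98), PSAP (-0.94), CTSC (-0.75), LIPA (-0.73), LAMP2 (-0.71) and PPT1 (-0.53) and the rise of NEU1 (0.87) were still called, each at an adjusted p of at most 0.00474 (limma). NAGLU, MCOLN1, SGSH and GLA were still called as raised, at smaller values of 0.19, 0.17, 0.20 and 0.11 instead of 0.38, 0.35, 0.33 and 0.26. ARSA was called at a larger value, 0.46 instead of 0.35. CTSB, ARSB, SCARB2 and CD63 lost their calls, at -0.15, -0.029, -0.053 and -0.068. CTSD (-0.44, adjusted p = 0.00593), CTSL (-0.19) and FUCA1 (-0.14) were called as lowered after this step and not in the values as deposited, HEXA was called as raised (0.14), and GRN fell by 0.60 instead of 0.33.

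**Figure D4:**
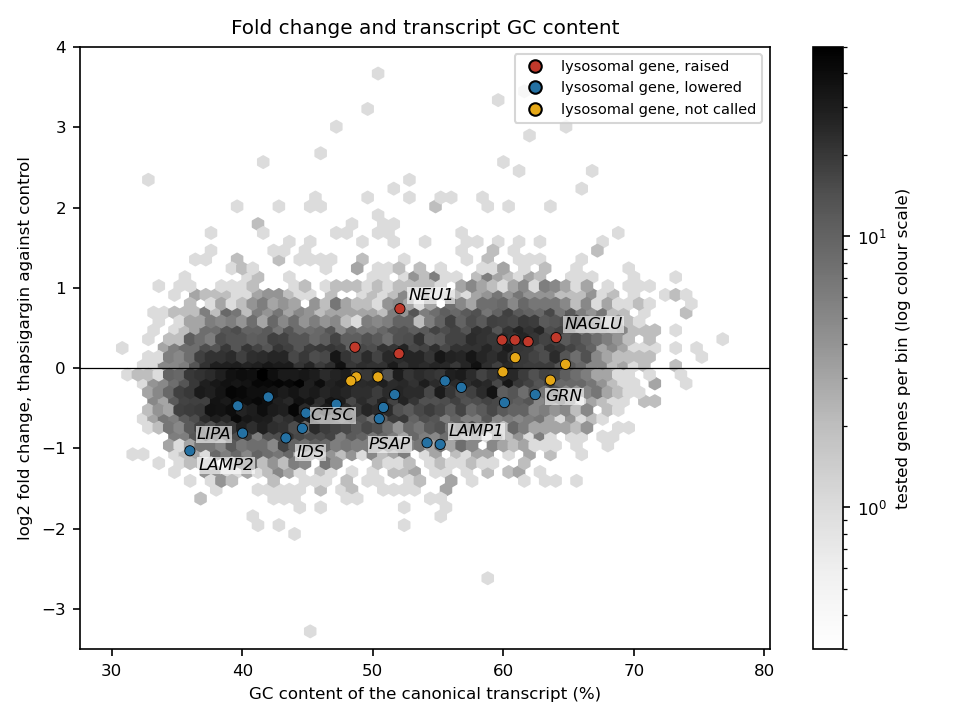
Log2 fold change of thapsigargin against control (vertical axis) against GC content of the canonical transcript in percent (horizontal axis) for 11584 tested genes (grey hexagons, log colour scale) and 31 lysosomal genes (points, coloured by call). LAMP1 and PSAP lie low for genes of their GC content and NEU1 lies high, while LAMP2 and NAGLU sit near the ends of the members' GC range.

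**Figure D5:**
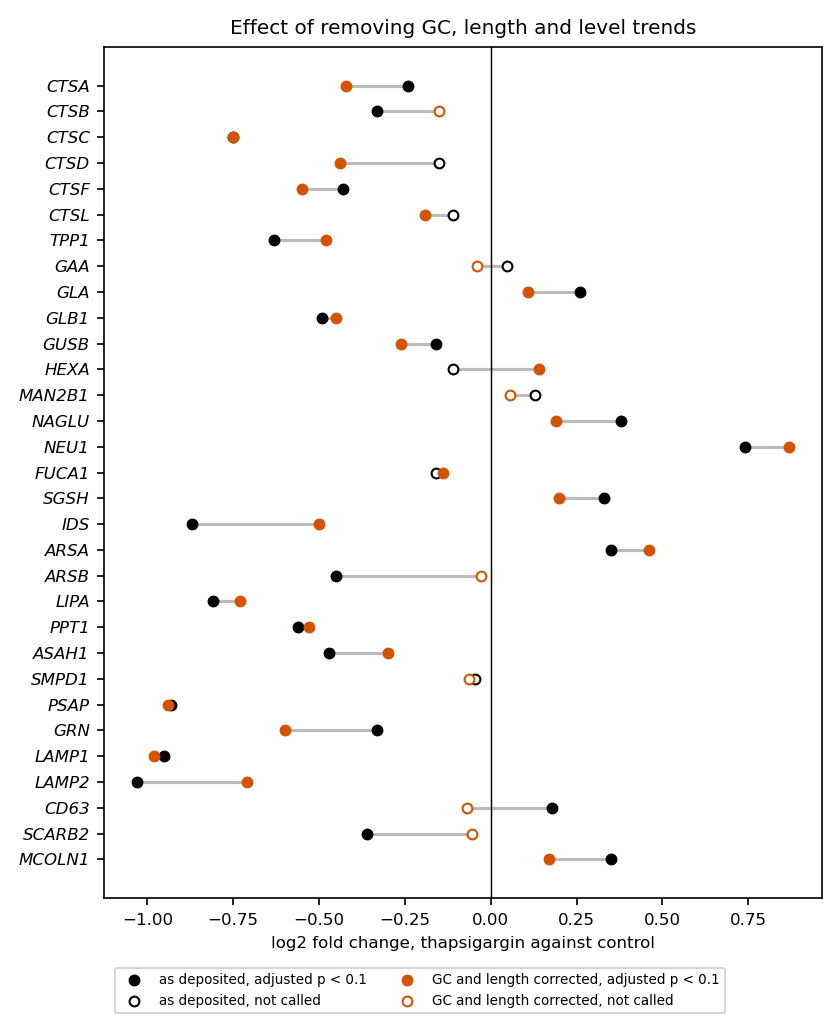
Log2 fold changes of 31 lysosomal genes (rows), thapsigargin against control, from the values as deposited (black) and after trends in GC content, length and level were removed (orange), with filled points at an adjusted p under 0.1. LAMP1, PSAP, CTSC and PPT1 hardly move, LAMP2, IDS and ARSB move toward 0, and GRN and CTSD move away from 0.

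PS19 lysate changed no lysosomal gene beyond the threshold. None of the 31 members was raised or lowered against control, beside 0.0170% of all genes raised and 0.0255% lowered (limma, adjusted p under 0.1). At an unadjusted p under 0.05 there were 3 members (9.68%, against 6.01% of all genes). These were ARSA, CTSA and GRN, with log2 fold changes of 0.24, 0.13 and 0.12 and adjusted p of 0.677, 0.826 and 0.82. The groups of every member overlapped, as did those of nearly all genes. PS19 libraries lay wholly above control libraries in 0.434% of all genes tested and wholly below in 0.579%. The 95% intervals of the 31 log2 fold changes lay between -0.42 and 0.40, and for 28 members they lay within 0.3 of 0, so for those 28 a larger change was outside the interval.

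The calls for PS19 depended on which control libraries were kept. Without control libraries 1 and 2, a choice made after seeing the data, 7.46% of all genes were raised and 13.3% lowered, and the members raised were 5 (16.1%) and those lowered 3 (9.68%). CTSA (0.20), CTSD (0.16), ARSA (0.31), GRN (0.17) and CD63 (0.20) were raised and IDS (-0.38), LIPA (-0.21) and LAMP2 (-0.19) were lowered, with adjusted p between 0.0149 and 0.0997 (limma). The transcripts of the 5 raised had GC contents of 52.0% to 63.6% and those of the 3 lowered 36.0% to 43.3%. Control libraries 3, 4 and 5, kept in this fit, had correlations with GC content of -0.44 to -0.40. That is outside the range of the PS19 libraries, 0.0077 to 0.47. Without control libraries 4 and 5 no member was called. With the GC, length and level trends removed and all 10 libraries kept, no member was called either, and ARSA had the smallest adjusted p (0.194). The part of base composition in the PS19 comparison was not tested beyond this.

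Thapsigargin set against PS19 showed much of the same division, and the comparison shares its thapsigargin libraries with the one above. Here 20 members were lowered and 5 raised (64.5% and 16.1% of the 31), beside 42.2% and 25.8% of all genes. LAMP1 had a log2 fold change of -1.02, PSAP -0.98, LAMP2 -0.98 and GRN -0.45, and NEU1 0.67, MCOLN1 0.42 and NAGLU 0.30, all called. CTSD, HEXA and FUCA1 were called here, at -0.26, -0.16 and -0.20 (adjusted p of 0.0267, 0.046 and 0.0531, limma). With median-ratio scaling CTSD (-0.15), HEXA (-0.052), FUCA1 (-0.09), GUSB (-0.041) and SCARB2 (-0.16) missed the threshold, and without thapsigargin libraries 2 and 4 so did CTSD (-0.14), HEXA (-0.12) and FUCA1 (-0.16). FUCA1 also lost this call with quantile normalization (-0.11) and without PS19 library 2 or thapsigargin library 1 or 2 (adjusted p of 0.105 to 0.128), HEXA without PS19 library 4 or thapsigargin library 4 (0.117 and 0.108), and MAN2B1 gained one without thapsigargin library 3 (0.22, adjusted p = 0.0698). ARSA (0.12) and CD63 (0.049) were not called here (adjusted p of 0.402 and 0.586).

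The genes that supply and acidify the lysosome were taken from lists of the same pathway. Of 12 genes for mannose 6-phosphate tagging and sorting, 8 fell and 2 rose with thapsigargin against control, at a median log2 fold change of -0.35 beside -0.13 over all genes. All counts of these lists stand beside 43.4% of all genes that fell and 26.0% that rose. GNPTAB, which encodes the catalytic subunits of the enzyme that starts the tag, averaged 3.13 ± 1.11 FPKM in thapsigargin libraries and 7.74 ± 1.70 FPKM in control libraries (SD, n = 5 each, adjusted p = 0.000357, limma). IGF2R, the large mannose 6-phosphate receptor, averaged 3.16 ± 0.88 FPKM in thapsigargin and 6.54 ± 1.32 FPKM in control libraries (adjusted p = 0.000594), and the sorting adaptor GGA2 fell by 0.53 on the log2 scale. Of 18 V-ATPase subunits, 9 fell and 3 rose, with ATP6V1H and ATP6V1C1 of the cytosolic sector at -0.74 and -0.57 and ATP6V0E1 of the membrane sector at -0.36.

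Among 18 tested genes of the TFEB family and its regulators, 9 fell and 1 rose, again beside 43.4% and 26.0% of all genes. FLCN, the folliculin that acts on the Rag GTPases, fell by 0.63 on the log2 scale, RRAGD, 1 of these GTPases, by 0.82, and PPP3CB, a catalytic subunit of the phosphatase calcineurin, by 0.78. TFEB and TFE3, named here because the list bears their name, had log2 fold changes of -0.18 and 0.13 and were not called (adjusted p of 0.15 and 0.138, limma). Of 29 other hydrolases and cofactors tested, 15 fell and 3 rose, among them the hyaluronidase HYAL2 at -0.49 and IDUA, the iduronidase, at 0.88. Of 27 other membrane proteins, 16 fell and 4 rose, with the proton and potassium channel TMEM175 at 0.83 and TMEM9 at 0.42. No gene of these lists was called in PS19 against control.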

How the data were processed

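The 15 RNA-Seq libraries, 5 per group, were assigned to groups by the condition and replicate number of their labels. The submitters' processing notes name HISAT2 2.0.4, RSEM 1.2.12 and the build GRCh38.p12. The authors deposited FPKM values per gene, scaled by transcript length and mapped fragments. The deposited values of 1 control library are listed under another unit because 408 cells of its column hold annotation text and no gene, which were not used. No counts are given, so the depth reached in each library and counting error are unknown. The DESeq2 1.4.5 count model of the study was not fitted.

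Log2(FPKM + 0.5) was compared with limma 3.58.1 in R 4.3.3 (mean-variance trend, two-sided) for 11753 genes (mean FPKM of 1 or more across all 15), with the 10 libraries of each comparison and Benjamini-Hochberg adjustment at 0.1. Fits were tested on simulated data. A log2 change of 0.3 was recovered in 0% of changed genes in thapsigargin against control. The share was 60.5% in PS19 against control and 10% in thapsigargin against PS19. For a change of 0.6 the shares were 75%, 95.5% and 79.5%. The simulation changed few genes, while thapsigargin moved most, so these shares need not hold for its comparisons. All 32 members are named. From each list up to 3 tested genes of smallest unadjusted p in thapsigargin against control are named, and others are said to be chosen outside this rule. Some genes that the rule takes are left out of the text. The members and lists were chosen with earlier results of these data known. Alternatives covered pseudocount, filter, scaling, trend, robust variances, threshold, all 15 libraries, replicate block and each library left out. A correction for GC content, transcript length and level used splines of 4 degrees of freedom per library, with transcript features taken by symbol from GENCODE canonical transcripts on GRCh37, which matched 98.6% of tested genes.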

Additional observations from a re-analysis of the deposited data

Results flagged for a closer look

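In 2 of 96 groups of 5 libraries, 1 library lay far from the other 4, a distance that chance alone gives in about 1 in 20 groups. CTSA had 32.6 FPKM in PS19 library 3, against 36.3 to 36.7 FPKM in the other PS19 libraries. SMPD1 had 5.64 FPKM in control library 4, against 4.73 to 4.93 FPKM in the other control libraries.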

How the results depend on the processing

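Depth was not recorded in the values, so a change in the scarce members ARSB and SMPD1 cannot be set against counting error, and 5 libraries a group limit what small changes show. Member counts stayed within 1.5 times those reported except in the following cases. With TPM, 3 members were raised in thapsigargin against control and 3 in thapsigargin against PS19, and without control libraries 1 and 2, a choice made after seeing the data, 5 were raised and 3 lowered in PS19 against control. With each library left out in turn, 6 to 8 members were raised and 16 to 19 lowered in thapsigargin against control, 5 to 6 raised and 19 to 20 lowered in thapsigargin against PS19, and 0 called in PS19 against control. With the replicate block, 7 members were raised and 17 lowered in thapsigargin against control, 0 were called in PS19 against control, and 5 were raised and 19 lowered in thapsigargin against PS19, HEXA (adjusted p = 0.108, limma) being the call lost. The replicate numbers did not pair the libraries, since correlations of same-numbered libraries ran from -0.209 to 0.609. Among values called under at least 1 of the settings compared, signs turned in quantile normalization for SMPD1 (0.22 in thapsigargin against control) and, after the GC, length and level correction, for HEXA (0.14) and CD63 (-0.068) in thapsigargin against control and for HEXA (0.069), CD63 (-0.16) and SCARB2 (0.00087) in thapsigargin against PS19. The cause was not tested. Members called in neither setting, such as GAA, MAN2B1 and CTSL, also changed sign in some settings. In thapsigargin against control the log2 fold change of CD63 missed the threshold with its sign kept in 13 of 26 settings.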

Other observations

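Genes of a list of cathepsin and other protease inhibitors moved in both directions with thapsigargin. Of 5 tested, 2 rose and 1 fell against control, beside 26.0% of all genes that rose and 43.4% that fell. CST3, the secreted cystatin C, averaged 288 ± 55.8 FPKM in thapsigargin libraries and 201 ± 29.0 FPKM in control libraries (SD, n = 5 each, adjusted p = 0.00712, limma), with overlapping groups. SERPINB6 rose by 0.26 on the log2 scale (adjusted p = 0.00297). The gene that fell was SPINT2, an inhibitor of serine proteases and not of the cathepsins tested here, by 0.30 (adjusted p = 0.0257).

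Of 8 genes for export, maturation or degradation of proteins in the ER, 3 rose and 3 fell, beside the same shares of all genes. They were listed for lysosomal enzymes, but not all act on them. SUMF1, which makes the formylglycine that sulfatases need, averaged 3.31 ± 0.74 FPKM in thapsigargin libraries and 5.11 ± 0.30 FPKM in control libraries (SD, n = 5 each, adjusted p = 0.00184, limma). SEL1L, an adaptor of ER-associated degradation, averaged 10.3 ± 3.18 FPKM in thapsigargin and 5.03 ± 1.34 FPKM in control libraries (adjusted p = 0.00217), and LMF1, a maturation factor of lipases, rose by 0.43 on the log2 scale (adjusted p = 0.00358). None of the genes of these lists was called in PS19 against control.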
